A study of Mus musculus with 2 samples.

Results

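The potassium channel genes of the mouse, here the protein-coding genes whose symbol starts with Kcn in GENCODE release M21, were examined for Prrc2a RIP-seq peaks in the brain. The annotation held 94 such genes among 21951 protein-coding genes. RIP-seq sequences the RNA recovered with a protein, and the peaks mark transcript regions with more reads in the Prrc2a immunoprecipitate than in a control. The assay was done on whole brain of male wild-type C57BL/6J mice at 4 weeks of age, with no other genotype or treatment, in 2 replicates, and the protocol speaks of 3 brains without saying how they were divided between the replicates. Bead-bound RNA was digested with micrococcal nuclease at 2 U per ml for 10 min at 37 °C before sequencing. The replicate 1 list held 18129 peaks and the replicate 2 list 18671, each with a position on mm10 (GRCm38) and a fold enrichment, a linear ratio of immunoprecipitate to control. A peak was assigned to a gene when it covered at least 1 bp of an exon of any of its transcripts, and a replicate 1 peak was called shared when at least 1 bp of it lay in a replicate 2 peak. The control library of the peak call is not given in the sources used here, the read totals are unknown, and the lists carry neither a strand nor a p-value. Absence of a peak therefore cannot be separated from little RNA or few reads, and in whole brain fewer cells of a type and less RNA per cell cannot be told apart. Of brain cell markers, Olig2 (oligodendrocytes) and Slc1a2 (astrocytes) had a shared peak, Map2 (neurons) had 4 peaks in replicate 2 only, the other 5 neuronal markers had no peak, and none of 6 liver and pancreas genes had a peak in either list.

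Potassium channels let potassium leave or enter a cell and thereby set its resting potential and shape the repolarisation that ends an action potential. The voltage-gated families (Kcna to Kcnd, Kcnh, Kcnq) open on depolarisation, the silent or modifier subunits (Kcnf, Kcng, Kcns, Kcnv) work only together with a pore-forming partner, the inward rectifiers (Kcnj) and the tandem-pore leak channels (Kcnk) hold the membrane near rest, and the Kcnma, Kcnn and Kcnt channels respond to intracellular calcium or sodium. Accessory genes (Kcnab, Kcne, Kcnip, Kcnmb, Kcnrg) encode proteins that bind these channels and alter their gating or trafficking. Every pore-forming subunit carries a short selectivity filter, a run of glycine and aromatic residues that lines the narrowest part of the pore and lets potassium pass ahead of sodium.

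The sequences in the most enriched shared peaks are shown first, because GGAC is the motif the study names for Prrc2a peaks and these peaks have the highest mean fold enrichment of the Kcn genes. A high mean need not be high in both replicates, as the Kcnq3 peak with 2.06 and 6.33 shows. For 11 of the 12 genes with the highest mean fold enrichment, the GGACT (or, where there was none, the GGAC) nearest to the middle of the bases common to both replicates is given 5′ to 3′ on the strand of the gene, with 12 bases on each side. Capitals mark the motif. The twelfth gene, Kcnt2, had no GGAC with such flanks in its shared peak.
Kcnh5, 5′ UTR, minus strand, chr12:75176831-75176858: tcagcaccggcgGGACagcgacagcggg
Kcng3, CDS, minus strand, chr17:83631519-83631547: ggagctgctcaaGGACTtcccgctgcgcc
Kcnn1, 5′ UTR, minus strand, chr8:70863091-70863118: ccgccgcggaggGGACacctgaccgtcc
Kcnb2, CDS, plus strand, chr1:15710330-15710358: agccaataccaaGGACTcagtagatgata
Kcng1, 5′ UTR, minus strand, chr2:168281634-168281662: tgtggggctcccGGACTgccacacataaa
Kcnq5, 5′ UTR, minus strand, chr1:21961751-21961778: cggcagaaatccGGACctccccgggcct
Kcnk13, CDS, plus strand, chr12:99966219-99966247: gcgccctcgctgGGACTtcacgggcgcct
Kcna4, CDS, plus strand, chr2:107295536-107295564: accctgagaagaGGACTcagtacttcgac
Kcnh7, CDS, minus strand, chr2:62777402-62777429: gactcgagttctGGACcgtccattaaag
Kcnq3, CDS, minus strand, chr15:66286113-66286141: ccctgctggaggGGACTcggcggtggccg
Kcns2, CDS, plus strand, chr15:34839815-34839843: ggtcaatttaagGGACTactatgctcata
Of these 11 windows, those of Kcnh5, Kcnn1, Kcng1 and Kcnq5 lay in the 5′ UTR and the rest in coding sequence.

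The second set of sequences encodes the selectivity filter, and it is shown because the filter is the stretch that pore-forming Kcn genes have in common. The genes were picked from those where peaks of both replicates covered it. The capitals mark the 15 bases for threonine or serine, a hydrophobic residue or threonine, glycine, tyrosine or phenylalanine, and glycine, found by translating the transcript with the longest coding sequence. All 6 stretches lay in a peak of both replicates.
Kcnh1, plus strand, chr1:192337748-192337774: ctcaccAGTGTGGGCTTTGGTaacatt
Kcnh5, minus strand, chr12:75087460-75087486: cttacaACCATAGGATTTGGAaacata
Kcnh7, minus strand, chr2:62777337-62777363: ctaaccAGTGTAGGATTTGGAaatgtg
Kcnb2, plus strand, chr1:15710040-15710066: atgaccACTGTGGGCTACGGTgacatt
Kcna4, plus strand, chr2:107296489-107296515: atgacaACTGTGGGCTATGGGgacatg
Kcnj6, minus strand, chr16:94832771-94832797: gaaaccACCATCGGTTATGGCtaccgg
The same pattern occurred in 77 Kcn genes, which are all 77 counted here as pore-forming by name, the modifier subunits included. Over all protein-coding genes read, it occurred in 197 of 21853 (0.901%). In 22 of the 39 pore-forming genes with a shared peak (56.4%), all 15 bases of a copy lay in peaks of both replicates. Of all coding bases of the 40 genes with a shared peak, 50.8% did so. That is a share of bases and not of genes, so the values are not directly comparable. In Kcnd1, Kcnd2 and Kcnd3 an intron split the 15 bases, and the peaks of both replicates covered 8 of them in Kcnd3 and none in Kcnd1 and Kcnd2. An intron also split the only or first copy in every Kcnk gene.

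Shared exonic peaks were found in 40 of the 94 Kcn genes (42.6%), against 12.0% of all protein-coding genes. In the single lists, replicate 1 had peaks in 44 Kcn genes (46.8%, against 16.5% of all) and replicate 2 in 49 (52.1%, against 21.0%). This gives 49.5% ± 3.75 (SD, n = 2) of Kcn genes and 18.8% ± 3.18 (SD, n = 2) of all protein-coding genes. A further gene, Kcna5, had peaks in both lists that did not overlap, 3 genes had peaks in replicate 1 only (3.19%, against 2.93% of all), 8 in replicate 2 only (8.51%, against 7.50% of all), and 42 had none. The shares with peaks in 1 replicate only were thus close to the background, and the share with a shared peak was not. Since the members were chosen with earlier results known, these shares are descriptions and carry no test.

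The counts differed between classes of Kcn genes. Of the 77 pore-forming genes, with the modifier subunits counted among them, 39 had a shared peak (50.6%), and of the 17 accessory genes 1 did (5.88%). Among all protein-coding genes the share was 12.0%. The Kcna to Kcnd genes were called most often, with 13 of 17 (76.5%), followed by the modifier subunits with 7 of 10 (70.0%). Among the Kcnh and Kcnq genes 5 of 13 had a shared peak (38.5%), among Kcnj and Kcnk 11 of 29 (37.9%), and among Kcnma, Kcnn, Kcnt and Kcnu 3 of 8 (37.5%). Accessory genes also had shorter merged exons, with a median of 3214 bases against 4587 in the pore-forming genes. Of all protein-coding genes with 2854 to 4268 exonic bases, the range that holds the accessory median, 7.36% had a shared peak. Of those with 4268 to 6511 bases, 15.6% had one. The accessory genes themselves ranged from 1543 bases (Kcne1l) to 8593 (Kcnab1, the 1 with a shared peak), so a median does not match them by length. The part of length in the contrast between the classes was not tested.

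**Figure D1:**
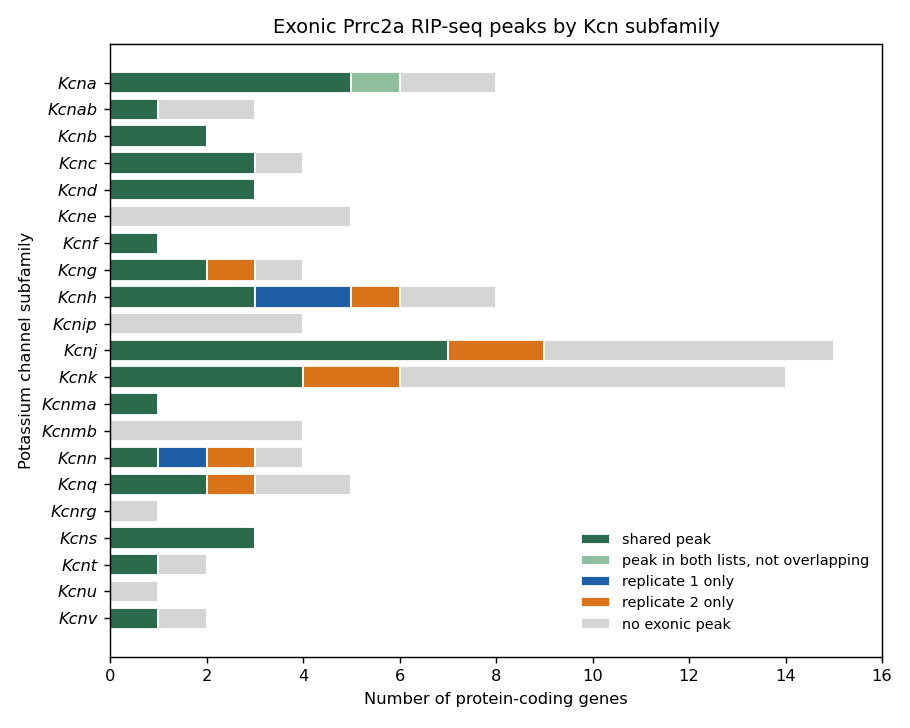
Number of protein-coding genes (x axis) of each Kcn subfamily (y axis), coloured by whether exonic peaks were shared by both replicates, present in both lists without overlap, present in 1 list, or absent. All Kcnb, Kcnd, Kcnf, Kcnma and Kcns genes had a shared peak, and none of the Kcne, Kcnip, Kcnmb, Kcnrg and Kcnu genes had any exonic peak.

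Exonic length moved with the calls. Kcn genes with a shared peak had a median of 5183.5 exonic bases and those without one 3682, while all protein-coding genes with and without a shared peak had 6865 and 3182.5. When all protein-coding genes were put into 5 groups of equal size by exonic length, the percentage with a shared peak rose from 1.73% in the shortest group through 3.08%, 7.36% and 15.6% to 32.1% in the longest. Kcn genes of the same groups had shared peaks in 0 of 3, 6 of 17 (35.3%), 6 of 28 (21.4%), 13 of 26 (50.0%) and 15 of 20 (75.0%). In the 4 longer groups the Kcn percentage was above that of all genes of like length, and the shortest group held only 3 Kcn genes.

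**Figure D2:**
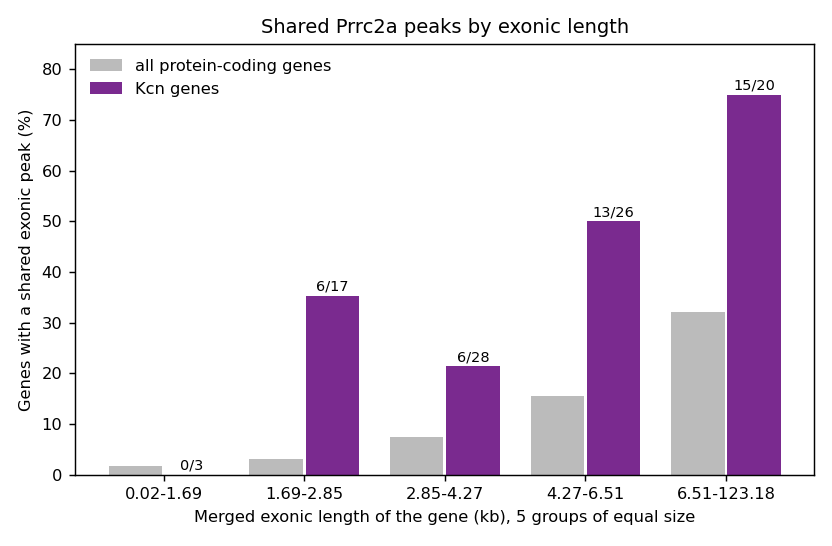
Percentage of genes with a shared exonic peak (y axis) in 5 equal groups of protein-coding genes ordered by merged exonic length in kb (x axis), for all protein-coding genes (grey) and Kcn genes (purple, with genes called over genes in the group). Both percentages were highest in the longest group, at 32.1% and 75.0%.

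The 40 genes held 142 shared peaks, from 178 replicate 1 and 242 replicate 2 peaks over Kcn exons. The count is in replicate 1 peaks. Counted in replicate 2 peaks, 156 were shared, and the replicate 2 list alone, without regard to replicate 1, held 242. A Kcn gene with any shared peak had a median of 3, and 21 genes had at least 3, which is 22.3% of the 94 against 4.57% of all protein-coding genes. Of the 94 Kcn genes, 10 had at least 5, against 442 of all 21951 protein-coding genes. All 10 were pore-forming, from Kcnh7 with 15 down to Kcnj2, Kcnj6, Kcnk10 and Kcnma1 with 5 each. Some of the peaks counted barely touched an exon, with 10 exonic bases in a Kcnk10 peak and 18 in a Kcnj6 peak. At least 8 shared peaks occurred in 5 genes, among them Kcnh7, Kcnh1, Kcnq3 and Kcnh5 (5.32% of Kcn genes, against 0.715% of all).

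Over the 142 shared peaks the median fold enrichment was 2.29 in replicate 1 and 2.73 in replicate 2, next to 2.27 and 2.81 over the 7317 shared peaks of all protein-coding genes. Each of the 7317 was given only to the protein-coding gene with the most exonic bases under it. A Kcn peak was counted for any Kcn gene whose exons it touched. The Kcn transcripts were called more often than other transcripts, and their typical peak had a similar enrichment. For each replicate 1 peak the replicate 2 peak with the most overlapping bases was its partner, and the partner was higher for 99 of the 142 (69.7%, against 71.3% of all shared peaks). The median log2 ratio of replicate 1 over replicate 2 was -0.28, with an SD over peaks of 0.47. Spearman's rho between the replicates was 0.656 over the 142 peaks and 0.554 over all 7317; peaks of one gene share a transcript and are not independent.

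**Figure D3:**
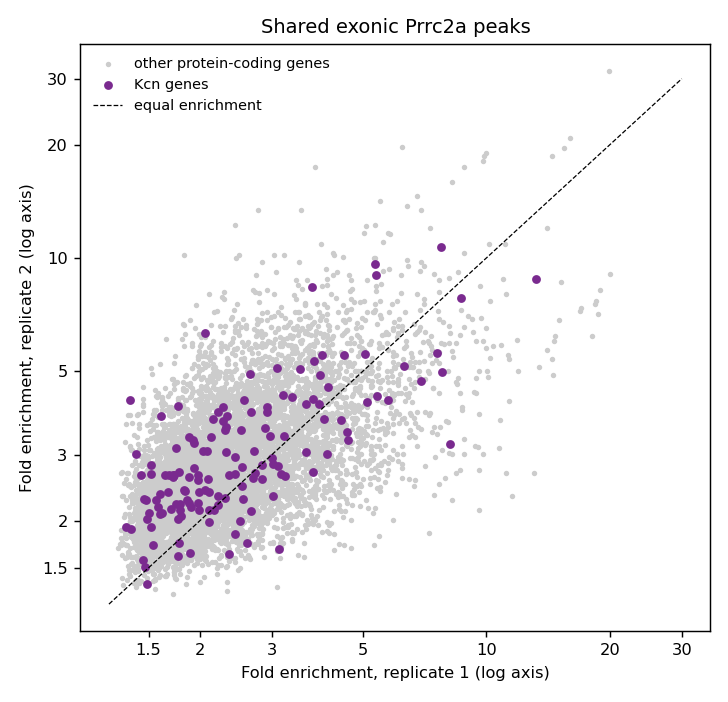
Fold enrichment of each shared exonic peak in replicate 1 (x axis) and in its replicate 2 partner (y axis), both linear ratios on log axes, for Kcn genes (purple) and other protein-coding genes (grey), with a dashed line at equal enrichment. The Kcn peaks lay within the cloud of the other peaks, and 99 of 142 were higher in replicate 2.

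Shared peaks with an enrichment of 4 or more in each replicate occurred in 8 genes, Kcnb2, Kcng1, Kcng3, Kcnh5, Kcnh7, Kcnn1, Kcnq5 and Kcnt2 (8.51%, against 1.59% of all protein-coding genes). In Kcnn1 and Kcnq5 the only such peak also covered exons of another gene. In Kcng1 only 19.6% of the bases of that peak were exonic. The most enriched peak of the genes named, by the mean of both replicates, is described below with the role of the gene. Between the most enriched peaks of neighbouring genes the difference was often smaller than that between the replicates of a single peak, so the order of genes such as Kcnk13, Kcna4 and Kcnh7 is not resolved.

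**Figure D4:**
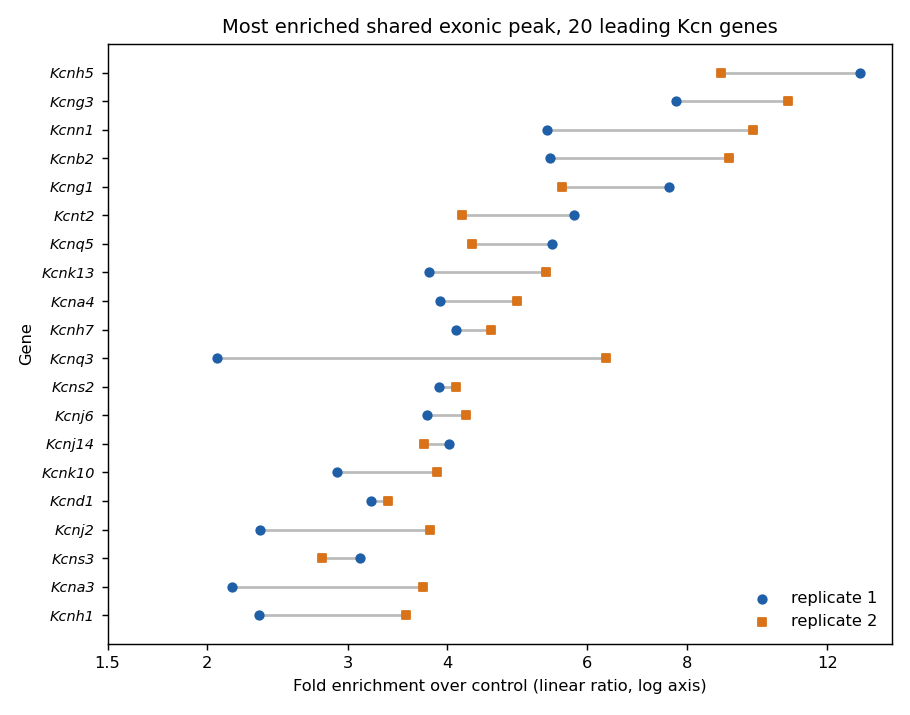
Fold enrichment over control (x axis, linear ratio on a log axis) of the shared exonic peak with the highest mean enrichment in the 20 Kcn genes where that mean was highest (y axis, in its order), in replicate 1 (blue circles) and replicate 2 (orange squares). Kcnh5, with 13.2 and 8.82, and Kcng3, with 7.75 and 10.7, led the order, and Kcnh1, with 2.32 and 3.55, stood last of the 20.

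Kcnb2 (chr1:15287254-15723750), a slow delayed rectifier subunit, had 13 replicate 1 peaks, 6 of them shared, and 9 replicate 2 peaks. Its most enriched shared peak, over the second coding exon that holds the filter shown above, measured 5.38 in replicate 1 and 9.03 in replicate 2, and the peak over the first coding exon measured 8.16 and 3.20. The replicates thus ordered these peaks differently.

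The Kcna genes encode low-threshold channels that dampen repetitive firing, and 5 of 8 had a shared peak. Kcna4, an inactivating member, was the most enriched with 3.92 and 4.89, in a peak covering its whole coding sequence. Kcna6 had 4 replicate 1 peaks, between 1.44 and 1.98, inside a single replicate 2 peak of 2.65 that was 5476 bp wide. Kcna1, an axonal channel gene, had 3 shared peaks between 1.46 and 1.56 in replicate 1, and their partners measured 2.27 and 2.29. Kcna2, its usual axonal partner, differed most between the lists, with 1 peak in replicate 1 and 12 in replicate 2, and its shared peak measured 1.40 and 3.01. Kcna3, known also from lymphocytes, had 2 shared peaks, the stronger at 2.15 and 3.73. Kcna5 had a single peak in each list over coding sequence, 2.61 and 2.25, without a common base, and Kcna7 and Kcna10 had none.

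The fast Kcnc channels, which allow high-frequency firing, had shared peaks in 3 of 4 genes. Kcnc2 had 4, with the strongest at 2.55 and 2.29. Kcnc4 had 2, the stronger at 1.52 and 2.67. Kcnc1 had 2 peaks in replicate 1 and 10 in replicate 2, and its shared peaks, 1.73 and 2.65 at the strongest, lay in the 3′ UTR. All 3 Kcnd genes, whose A-type channels act in dendrites, had 3 shared peaks each. Their strongest measured 3.21 and 3.37 in Kcnd1, 2.21 and 2.33 in Kcnd3, and 1.98 and 2.23 in Kcnd2. The replicates were close in all 3 genes, and in each of them 1 shared peak had its midpoint in coding sequence.

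The modifier subunits included some of the highest values. Kcng3 (chr17:83585957-83631895) had a peak over its first coding exon of 7.75 and 10.7 and another of 5.11 and 4.13. Kcng1 (chr2:168260117-168281736) had 4 shared peaks, and the strongest, at its 5′ end, measured 7.60 and 5.58. Both were high in both lists, with no value of their strongest peak under 5.58. The strongest Kcng1 peak, as called in replicate 1, had its midpoint outside the annotated gene. Only 356 of its 1817 bases (19.6%) were exonic. Kcns2 had 3 shared peaks, the strongest at 3.91 and 4.10, Kcns3 had 1 at 3.11 and 2.79, and Kcns1 had 1 at 2.72 and 2.68. Kcnv1 had 2, the stronger at 2.17 and 2.13, and Kcnf1 had 2, the stronger at 1.58 and 2.18 over its whole coding sequence. Kcng2 had a replicate 2 peak of 2.07, and Kcng4 and Kcnv2 had no peak.

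The Kcnh family, the ether-à-go-go channels, gave 32 of the 142 shared peaks from only 3 of its 8 genes. Kcnh5 (chr12:74897220-75177332) had 8 shared peaks, and its 5′ UTR peak measured 13.2 in replicate 1 and 8.82 in replicate 2, the highest mean of any Kcn peak. Its peaks lay on 8 of 11 coding exons in both replicates and covered 84.3% of its exonic bases in both. Kcnh7 (chr2:62693414-63184287), of the erg branch, had 15 shared peaks, and only 18 protein-coding genes had more. They reached 13 of 16 coding exons and 85.6% of the coding sequence in both replicates, and the strongest measured 4.11 and 4.54. Kcnh1 (chr1:192190774-192510159) had 9, between 1.78 and 2.54 in replicate 1 and between 1.64 and 3.55 in replicate 2, on 7 of 11 coding exons and 68.0% of the coding sequence.

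The other Kcnh genes were not shared. Kcnh3 had 6 weak peaks between 1.44 and 1.85 in replicate 2 only, Kcnh4 and Kcnh6 had 2 each in replicate 1 only, between 1.94 and 3.54, and Kcnh2 and Kcnh8 had none. The genes with shared peaks, Kcnh5, Kcnh1 and Kcnh7, had 4058, 7331 and 15226 exonic bases. Kcnh6, Kcnh4, Kcnh8, Kcnh2 and Kcnh3 had 3549, 3954, 4557, 4845 and 5756. Whether length or RNA level bears on these calls was not tested, and RNA levels are not part of these lists.

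The Kcnq genes encode the M-current channels, which hold back repeated firing. Kcnq3 had 9 shared peaks, on 4 of 15 coding exons and in the 3′ UTR, and its strongest peak, at the 5′ end, measured 2.06 in replicate 1 and 6.33 in replicate 2. Kcnq5 had 4, the strongest at 5.42 and 4.30, also at the 5′ end. Kcnq1, known from the heart, had none.

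**Figure D5:**
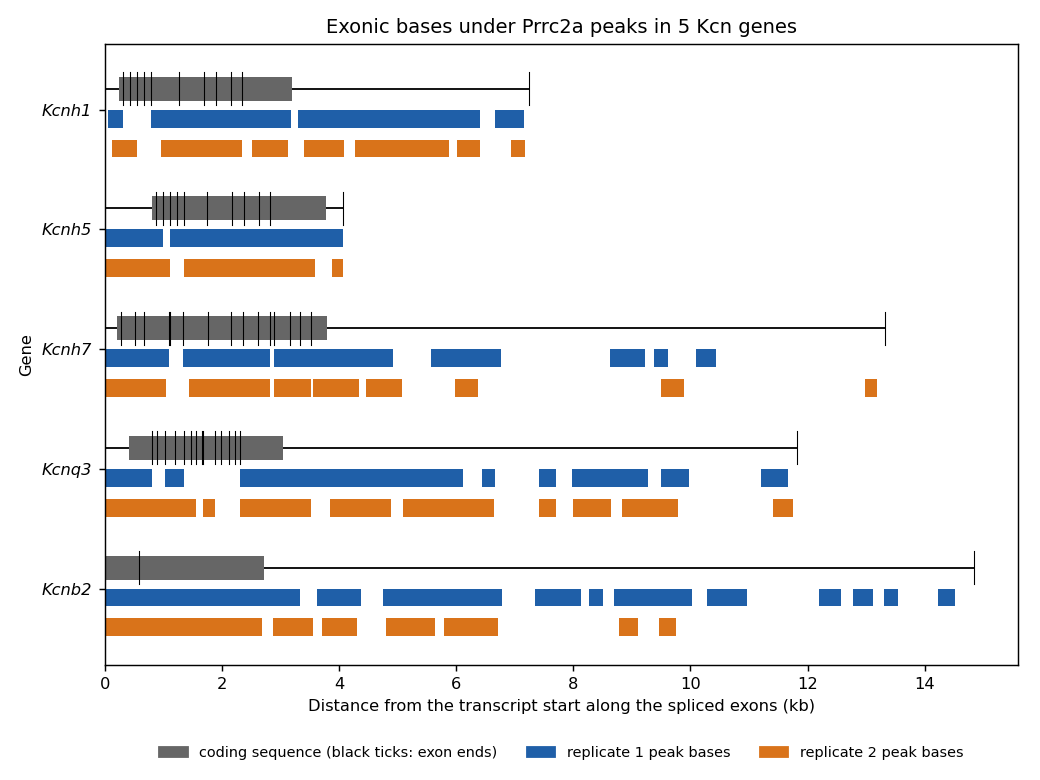
Bases under replicate 1 (blue) and replicate 2 (orange) peaks along the spliced exons of 5 Kcn genes (y axis), by distance from the transcript start in kb (x axis), with coding sequence in grey and exon ends as black ticks. In Kcnh5 and Kcnh7 the peaks ran over most of the many coding exons (82.2% and 85.6% of coding bases in both replicates), and in Kcnb2 they covered 98.5% of the coding bases.

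Among the inward rectifiers, 7 of 15 had a shared peak. Kcnj6, a subunit of the G protein-gated channels, had 5, the strongest at 3.77 and 4.22 in the 5′ UTR. Its channel partner Kcnj3 had 1 at 1.77 and 2.02, and the related Kcnj9 had only a replicate 2 peak of 1.63. Kcnj2, a strong rectifier of brain, muscle and heart, had 5 shared peaks, and the strongest measured 2.33 and 3.81. The strong rectifiers Kcnj12, Kcnj14 and Kcnj4 had 3, 1 and 2, with the strongest at 1.88 and 2.61, 4.02 and 3.74, and 1.60 and 2.08. Kcnj11, the pore of the ATP-sensitive channel, had 1 at 2.61 and 1.75. Kcnj10, the glial channel, had a single replicate 2 peak of 2.39, and the other 6 Kcnj genes had no peak.

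Of the leak channels 4 of 14 had a shared peak. Kcnk13 had 2, the stronger at 3.80 and 5.32, and its close relative Kcnk12 had 2, the stronger at 2.30 and 3.49. The mechanosensitive Kcnk2 had 2, the strongest at 1.93 and 3.22, and the related Kcnk10 had 5, the strongest at 2.91 and 3.89. Kcnk3 and Kcnk9, the acid-sensitive members, had 4 peaks each in replicate 2, between 1.86 and 2.98, and none in replicate 1. The other 8 Kcnk genes had no peak.

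Among channels gated by calcium or sodium, Kcnma1, the large-conductance channel, had 5 shared peaks, the strongest at 2.84 and 2.82 in the 5′ UTR, and peaks of both replicates reached 1 of its 31 coding exons. Kcnn1, a small-conductance channel, had 3, and its 5′ UTR peak of 5.34 and 9.67 was the third highest of the Kcn genes. Kcnn2 had a single replicate 2 peak of 4.29, Kcnn3 had 4 replicate 1 peaks between 1.80 and 2.75, and Kcnn4 had none. Kcnt2, a sodium-activated channel, had 1 shared peak of 5.77 and 4.18 in its 3′ UTR, while Kcnt1 had none. Among accessory genes, Kcnab1 alone had a shared peak, of 1.49 and 2.02, which covered 182 exonic bases and had its midpoint outside the annotated gene.

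By its midpoint, a shared Kcn peak lay in coding sequence in 62 of 142 cases (43.7%, against 50.7% of all shared peaks), in the 3′ UTR in 48 (33.8%, against 30.5%) and in the 5′ UTR in 20 (14.1%, against 11.5%). In the single lists the Kcn shares were 42.7% ± 1.56 (SD, n = 2) for coding sequence and 38.5% ± 2.83 (SD, n = 2) for the 3′ UTR, and coding sequence took 51.4% ± 0.919 (SD, n = 2) of the peaks of all protein-coding genes. Among shared Kcn peaks with an enrichment of 3 or more in each replicate, the 3′ UTR share was 17.1%, and at 4 or more it was 31.2%. A midpoint beyond the annotated gene was found for 9 peaks (6.34%, against 1.63%), among them the replicate 1 peak of 5742 bp at the 3′ end of Kcnh5. Peaks of all genes went only to the gene with the most exonic bases, so these percentages are not directly comparable. The 142 peaks had a median width of 573.5 bp, against 469 bp for all.

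Counted in bases, peaks of both replicates covered 50.8% of the coding sequence, 48.4% of the 5′ UTR and 24.6% of the 3′ UTR of the 40 Kcn genes. The same shares over the 2629 protein-coding genes with a shared peak were 23.1%, 26.6% and 15.6%. Kcn genes have few coding exons, with a median of 2.5 in the 40 genes against 9 in the 2629, so the comparison was repeated by exon number. With 1 or 2 coding exons, the median gene had 71.6% of its coding sequence in both lists (20 Kcn genes) against 44.4% (545 of all genes). With 3 or more, the medians were 31.6% (20 Kcn genes) and 11.2% (2073 of all genes); genes without a protein-coding transcript were left out. The 5 Kcn genes covered over their whole coding sequence, among them Kcna4, Kcna6, Kcnf1 and Kcns2, all belonged to the first kind.

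GGAC, read on the strand of the gene, occurred in the exonic bases of 114 of the 142 shared peaks (80.3%, against 77.9% of all 7317), and GGACT, which contains it, in 65 (45.8%, against 43.0%). Per kb of exonic bases there were 4.54 GGAC in Kcn peaks and 4.64 in all peaks, at a GC content of 52.1% and 52.6%. In the single lists the Kcn share with GGAC was 77.5% ± 0.778 (SD, n = 2). Kcn peaks were wider than the rest, and in windows of 101 bases around the midpoint GGAC occurred in 42.3% of the Kcn peaks and 36.4% of all. A match is a sequence in the window and not a measured contact.

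Of the 142 peaks, 11 also covered exons of another annotated gene, and without a strand these cannot be assigned to one of them. Among the genes concerned were Kcna6, Kcnj3, Kcnj4, Kcnj6, Kcnk2, Kcnma1, Kcnn1 and Kcnq5. The 5′ UTR peaks of Kcnn1 and Kcnma1 given above were among those with such a neighbour, A230052G05Rik and 4930519K11Rik. The Kcnq5 peak of 5.42 and 4.30 was another, with Gm26580.

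Genes of related function were counted for comparison. Of 35 genes for sodium, calcium, cyclic nucleotide-gated and hyperpolarisation-activated channels, 10 had a shared peak (28.6%), with 35 peaks, at a median exonic length of 8764 bases. The calcium channel pores gave 5 of 10, led by Cacna1i with 8 peaks and by Cacna1c and Cacna1e with 6, and the sodium channel pores gave 3 of 10. Of 25 genes for proteins that bind or anchor potassium channels, 8 had one (32.0%), with 24 peaks. Among these, Amigo1, an adhesion protein, had 4 shared peaks, Lrrc55, a partner of Kcnma1, had 3, and the anchoring proteins Ank2 and Ank3 had 6 and 3. Dpp6 and Dpp10, the Kcnd partners, had no peak in either list. Both list shares, 28.6% and 32.0%, were above the 12.0% of all protein-coding genes and below the 42.6% of the Kcn genes. The median exonic lengths of both lists (8764 and 8373 bases) were above that of all protein-coding genes (3498 bases). They fell in the longest of the 5 length groups (6513 bases or more), where 32.1% of all protein-coding genes had a shared peak. Neither list share was above that value.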

How the data were processed

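Prrc2a RIP-seq peaks of mouse whole brain (1 condition, 2 replicates) were used as deposited. The authors aligned trimmed reads to mm10, kept unique alignments (minimum mapping quality 20) and ran the peak call on each replicate separately at an FDR of 0.05. The submitters' processing notes name TopHat2 2.0.9 and MACS2 2.0.10. The methods of the study name other versions of both programs, and which versions made the lists is not known. The deposited values are positions and the fold enrichment of each peak, a linear ratio over a control that is not given in the sources used here. Depth is unknown, so no interval could be set, and the SD over 2 replicates is the only error. Both ends of a peak were counted from 1.

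Overlaps, with GENCODE M21 exons of all transcripts of a gene merged, regions at the peak midpoint (CDS before 3′ UTR, then 5′ UTR, other exon, intron and outside the gene), motifs and coverage were computed in Python 3.11.15 and figures drawn with matplotlib 3.10.9. No set test was run. The functions were tested on simulated peaks, and 6 of 6 planted quantities were recovered. Members and gene lists were chosen with earlier results of these data known. Kcn genes with a shared peak are named, except that some items are not reported here, with values of both replicates in full for the 12 most enriched, those with at least 3 shared peaks and the highest of each subfamily. Alternatives changed the overlap, the enrichment minimum, the annotation, the region rule, the motif and the replicate.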

Additional observations from a re-analysis of the deposited data

How the results depend on the processing

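The number of Kcn genes with a shared peak, 40, was most sensitive to the enrichment minimum and went to 15 with at least 3 in both replicates and to 8 with at least 4, while the share of all protein-coding genes went from 12.0% to 3.66% and 1.59% and that of Kcn genes from 42.6% to 16.0% and 8.51%. With an overlap of at least 50% of both peaks the Kcn share was 37.2% and that of all protein-coding genes 9.50%, as Kcna2, Kcnj11, Kcnj3, Kcns1 and Kcns3 no longer counted, and over pore-forming genes only, chosen after seeing the data, the Kcn share was 50.6%. Shared peaks numbered 93 at 50% overlap, 35 at an enrichment of 3 and 16 at 4, counting any overlapping pair past the minimum. The coding share went from 43.7% to 53.8% at 50% overlap, 51.4% at an enrichment of 3 and 43.8% at 4, and the 3′ UTR share from 33.8% to 23.7%, 17.1% and 31.2%, or 37.2% when replicate 2 peaks were counted. The share with GGAC was 76.3% at 50% overlap, 74.3% at an enrichment of 3, 81.2% at 4, 79.4% without peaks over another gene, 40.8% within 100 bases around the midpoint, and 45.8% for GGACT.

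Leaving out a replicate means using the other list alone: it gave 44 to 49 genes, 178 to 242 peaks, 46.8% to 52.1% of Kcn genes, 16.5% to 21.0% of all genes, 41.6% to 43.8% in coding sequence, 36.5% to 40.5% in the 3′ UTR and 77.0% to 78.1% with GGAC. Of 78 values under alternatives, 31 moved past their limit, a factor of 1.5 for counts and 1 SD between replicates for shares, and 47 did not. No paired analysis was possible because there was 1 group. Read totals are unknown, so whether a peak in 1 list only reflects depth was not tested.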

Other observations

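Some peaks lay within a Kcn gene and touched none of its exons. Replicate 1 had 110 such intronic peaks in 17 genes, with a median fold enrichment of 4.04. Replicate 2 had 66 in 14 genes, with a median of 4.01. Both medians were above those of the exonic Kcn peaks (2.33 and 2.58) and of all peaks (2.84 and 2.63) of the same lists. Intronic peaks were counted in Kcn genes only, so whether these values are particular to them was not tested. The intronic peaks were unevenly spread over genes and replicates. Kcnma1 had 30 in replicate 1 and 1 in replicate 2, Kcnq3 had 29 and 0, and Kcnd2 had 2 and 21. Kcnip4, an accessory gene of Kcnd channels with no exonic peak, had 18 and 10, of which 1 was shared. Kcnj6 had 8 and 11, and 7 of its replicate 1 peaks were shared, the most of any Kcn gene. These peaks carry no strand, so they cannot be assigned to the Kcn transcript or to other RNA from the same introns.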
